A study of Mus musculus with 17 samples.

Results

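The Hox cluster genes were taken as every protein-coding gene whose mouse symbol is Hoxa, Hoxb, Hoxc or Hoxd followed by a number. This gave 39 genes of the 56748 in the deposited count table. RNA came from E11 cells, a mouse podocyte line, cultured on silicone (PDMS) with a surface lacking topography (NT, 5 libraries), a round, non-fractal relief (RT, 6 libraries) or a high fractal topography traced from healthy glomerular histology (HF, 6 libraries). NT and RT are the study's controls for HF. All groups share the same line and the same silicone, no age or treatment is given, and what separates one replicate from another is not stated, so a p-value here speaks of the variation among libraries, which could be technical.

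Hox genes encode homeodomain transcription factors that lie side by side in 4 clusters, Hoxa on chromosome 6, Hoxb on chromosome 11, Hoxc on chromosome 15 and Hoxd on chromosome 2. Genes with the same number in different clusters are paralogs, and along a cluster the low numbers are used towards the head and the high numbers towards the tail of the embryo. The proteins bind DNA together with cofactors of the Pbx and Meis families, Polycomb complexes keep unused Hox genes silent and trithorax proteins keep used ones active. In the mouse, the paralogs of group 11 are needed for the metanephric kidney, where they act with Eya1 and Pax2 on Six2 and Gdnf, and Hoxb7 is a known gene of the ureteric bud and its collecting ducts.

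The libraries held 14.9 to 24.1 M counts each, and Hox genes made up between 0.111% and 0.132% of them. Of the podocyte markers, 10 of 14 had enough counts to be tested, but several that define the mature cell were at or near 0. Tcf21 had 0 counts, Ptpro 1 and Plce1 23 in the 17 libraries together. Markers of other cells were present as well, with 5 of 10 tubular, 5 of 7 parietal and 4 of 6 fibroblast markers tested. Of the mesangial, pericyte and smooth muscle markers 5 of 8 were tested, while 2 of 7 endothelial and 2 of 7 immune markers were. Slc34a1, Aqp2, Epcam, Krt18, Kdr, Adgre1, Itgam and Cd3e had 0 counts.

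Hoxd8 was the Hox gene with the smallest p between surfaces, and its cluster also holds genes that were not detected. The promoter sequences of 2 expressed genes and 2 at or near 0 counts in the Hoxd cluster are therefore shown, each as the 250 bases before the transcription start on the plus strand, with every CpG dinucleotide in capitals. They are RefSeq sequences on the build GRCm38.p6, at chr2:74704365-74704614 for Hoxd8, chr2:74697513-74697762 for Hoxd9, chr2:74674763-74675012 for Hoxd12 and chr2:74667975-74668224 for Hoxd13.
Hoxd8: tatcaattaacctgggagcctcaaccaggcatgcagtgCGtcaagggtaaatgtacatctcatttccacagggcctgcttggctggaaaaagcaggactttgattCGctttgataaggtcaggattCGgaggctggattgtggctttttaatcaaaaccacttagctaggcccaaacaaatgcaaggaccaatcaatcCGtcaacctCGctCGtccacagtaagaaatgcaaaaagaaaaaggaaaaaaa
Hoxd9: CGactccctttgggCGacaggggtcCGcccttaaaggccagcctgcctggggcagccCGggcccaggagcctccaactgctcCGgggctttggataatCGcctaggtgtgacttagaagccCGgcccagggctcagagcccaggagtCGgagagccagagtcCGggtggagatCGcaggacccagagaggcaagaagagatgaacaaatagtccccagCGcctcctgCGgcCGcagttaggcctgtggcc
Hoxd12: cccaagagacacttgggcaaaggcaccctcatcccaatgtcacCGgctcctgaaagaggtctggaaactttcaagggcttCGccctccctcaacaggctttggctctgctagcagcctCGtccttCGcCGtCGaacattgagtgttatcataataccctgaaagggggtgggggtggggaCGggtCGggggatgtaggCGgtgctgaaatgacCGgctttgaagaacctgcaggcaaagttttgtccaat
Hoxd13: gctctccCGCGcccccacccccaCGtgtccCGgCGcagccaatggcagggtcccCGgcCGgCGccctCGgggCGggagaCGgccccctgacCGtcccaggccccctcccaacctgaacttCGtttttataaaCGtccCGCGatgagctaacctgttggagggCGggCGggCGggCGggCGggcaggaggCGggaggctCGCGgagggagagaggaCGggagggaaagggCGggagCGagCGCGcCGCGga

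The promoter of Hoxd8 held 6 CpG in 250 bases, which is the median of all 32851 promoters in that table, and its GC content was 44.4%. Hoxd9, the expressed neighbour, held 13 CpG, against 10 for Hoxd12 and 31 for Hoxd13, whose RNA was at or near 0. The table held 24 promoters of 22 Hox genes. The 16 promoters of genes at or above 1 CPM per kilobase of exon (CPM is a gene's count scaled to a common library total) had a median of 12.5 CpG, from 3 to 35. The 8 promoters of genes below that level had the same median of 12.5 CpG, from 2 to 31. Genes below the level were not all silent, as Hoxd3 had counts in all 17 libraries. Hoxa10 and Hoxd11 entered with more than 1 promoter each. The homeodomain core TAAT, sought on both strands, was in 18 of the 24, and in 54.9% of all promoters. The Hox-Pbx composite TGATNNAT, also sought on both strands, was in 4 of the 24, and in 7.68% of all promoters. Some forms of TGATNNAT hold TAAT. A match describes letters in this window and not a bound site. The promoters of Hoxb7, Hoxb9 and Hoxc6 were not matched.

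Hox genes of all 4 clusters were expressed, from paralog groups 1 to 10 and, through Hoxa13 alone, from group 13, with a peak at group 9. Levels between genes are compared as CPM per kilobase of exon, on which scale 26 of the 39 genes reached a mean of at least 1. Hoxb9 was the highest, with 115 CPM per kilobase, above 98.9% of 21922 protein-coding genes. Hoxa10 followed with 40.3, then Hoxb7 with 36.2, Hoxb8 with 35.9 and Hoxb6 with 34.9 CPM per kilobase. The last 3 lie next to each other in the cluster. This order rests on the exon length used. Hoxa9 had 39521 counts, near the 39746 of Hoxa10, but stood at 23.4 CPM per kilobase over 5580 exonic bases. The longest transcript of Hoxa9 is 3226 bases, and ranks by that length were not computed.

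**Figure D1:**
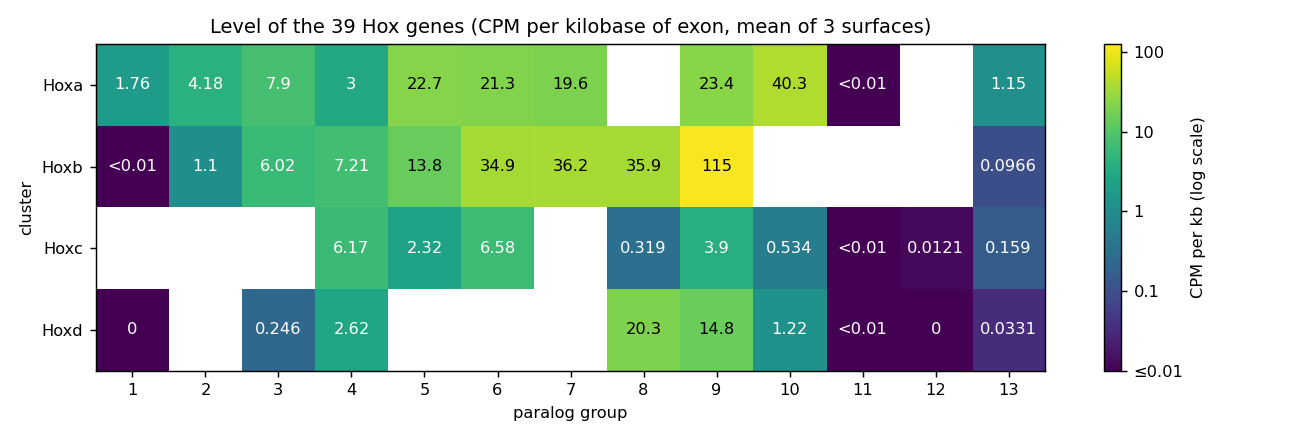
Level of each Hox gene by cluster (rows) and paralog group (columns), in CPM per kilobase of exon as the mean of the 3 surfaces, on a log colour scale, with white where the mouse has no gene. Hoxb9 is the highest with 115 CPM per kilobase, and every gene of groups 11 and 12 is below 0.02.

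By summed level, the Hoxb cluster held 55% ± 0.719 (SD over 17 libraries) of all Hox RNA and the Hoxa cluster 32% ± 1.03. Hoxd held 8.61% ± 0.382 and Hoxc 4.4% ± 0.182. In Hoxa, 10 of 11 genes reached 1 CPM per kilobase, and Hoxa11 did not. In Hoxb, 8 of 10 did, with Hoxb1 and Hoxb13 as the exceptions. In Hoxc the count was 4 of 9 and in Hoxd 4 of 9, and the highest genes there were Hoxc6 with 6.58 and Hoxd8 with 20.3 CPM per kilobase.

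By paralog group, group 9 alone held 34.6% ± 0.834 of the summed level (SD over 17 libraries), and all 4 of its genes were expressed. Groups 6, 7 and 8 held 13.8%, 12.2% and 12.4%, group 10 held 9.27% and group 5 held 8.54%. The head-side groups 1 to 3, whose genes pattern the hindbrain and the pharyngeal arches, held 0.389%, 1.16% and 3.12%. Groups 11 and 12 were at or near 0, and group 13 held 0.319%. Group 10 had a summed level of 42.1 CPM per kilobase, from 39.4 to 46 in single libraries, and group 11 had 0.013, from 0 to 0.0543.

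The 3 genes of group 11, Hoxa11, Hoxc11 and Hoxd11, had 6, 2 and 1 counts in the 17 libraries together. Hoxa11 shares 35% of its exonic bases with the antisense transcript Hoxa11os, and these libraries carry no strand, so even its 6 counts cannot be given to 1 strand. Group 12 had 0 counts for Hoxd12 and 4 for Hoxc12. Of group 13, which patterns the end of the body and the limb, Hoxa13 reached 1.15 CPM per kilobase (862 counts), while Hoxb13, Hoxc13 and Hoxd13 had 64, 114 and 25 counts. Hoxd1 had 0 counts. A count of 0 in the 302 M counts of all libraries allows up to 3 counts, or 0.00994 CPM, for Hoxd1 and Hoxd12, a limit that covers counting error only.

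Homeobox genes at the ends of the clusters were also at or near 0. Evx1, a homeobox gene beside Hoxa13, had 1 count and Evx2, beside Hoxd13, had 0. Of the listed noncoding RNAs of the clusters, 7 of 11 matched were tested. The highest by CPM were Hoxb5os with 15.5 ± 2.91 CPM, Hoxaas2 with 8.87 ± 1.33 and Hoxd3os1 with 7.69 ± 0.978 on NT (SD, n = 5). Per length, Hoxb5os had a level of 22.1 CPM per kilobase, between those of Hoxa6 (21.3) and Hoxa5 (22.7), and Hoxaas2 and Hoxd3os1 had 2.62 and 2.42. Such transcripts share sequence with their neighbours. Of the 29 Hox genes tested, 14 overlap another gene in their exons, 6 of them over more than 20%, among which are Hoxd3 (62.8%), Hoxb3 (52.9%) and Hoxd4 (52.3%). How the authors' counting treated such reads is not given in the sources used here, so the levels of these genes are uncertain. Hoxd8, Hoxb7, Hoxb9, Hoxa10 and Hoxc6 overlap no other gene and share no 100-base window of their longest transcript with one.

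HF against NT sets cells on the fractal surface beside cells on the flat one. In it, 3 Hox genes fell, Hoxd8, Hoxb9 and Hoxb7, and none rose. They are 3 of 29 tested members, or 10.3%, where 0.829% of all 15196 genes tested were called lower and 2.33% in either direction. In these bulk libraries fewer cells with a transcript and less of it per cell cannot be told apart. The falls were small, between 8.4% and 18.7%. They passed edgeR's quasi-likelihood test with Benjamini-Hochberg adjustment over all genes. At an unadjusted p under 0.05 the count was the same 3, against 14.2% of all genes tested.

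Hoxd8, a gene of the middle of its cluster, stood in NT at 62.5, 62.2, 63.6, 56.7 and 62.2 CPM in replicates 1 to 5. In RT its lowest, median and highest libraries were 52.7, 56.2 and 59.5 CPM, and in HF they were 48.1, 49.4 and 52.2 CPM. The 6 HF libraries thus lay below all NT and all RT libraries, by a narrow gap from RT (52.2 against 52.7 CPM). NT and RT overlapped through the low NT library 4. The means were 61.5 ± 2.72 CPM on NT (SD, n = 5), 56 ± 2.75 on RT and 50 ± 1.77 on HF (SD, n = 6 each). The log2 fold change of HF against NT was -0.30 ± 0.04 (SE, adjusted p = 0.000125). It passed in all 24 alternative settings, between -0.33 and -0.28.

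Hoxb9, the most abundant Hox gene of the line, stood in NT at 298, 307, 305, 306 and 321 CPM. Its lowest, median and highest libraries were 294, 300 and 305 CPM in RT and 267, 283 and 293 CPM in HF. The HF libraries again lay below every library of the other groups, also by a narrow gap. The log2 fold change of HF against NT was -0.13 ± 0.03 (SE, adjusted p = 0.0192). Leaving out HF 1, its lowest library, ended the call (adjusted p = 0.0627), and so did fitting HF and NT alone (adjusted p = 0.0722).

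Hoxb7, the neighbour of Hoxb8 and Hoxb6, stood in NT at 57.4, 59, 59.1, 57.3 and 64.2 CPM. Its lowest, median and highest libraries were 53.2, 55.6 and 57.4 CPM in RT and 50.7, 52.8 and 56.8 CPM in HF. HF lay below NT without overlap, with HF 5 close to the lowest NT library, and overlapped RT. The log2 fold change of HF against NT was -0.17 ± 0.04 (SE, adjusted p = 0.0262). Leaving out 1 of NT 3, NT 5, HF 1, HF 3 and HF 4 ended the call (adjusted p = 0.0599, 0.0592, 0.0501, 0.0732 and 0.0816), and so did fitting HF and NT alone (0.0675).

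**Figure D2:**
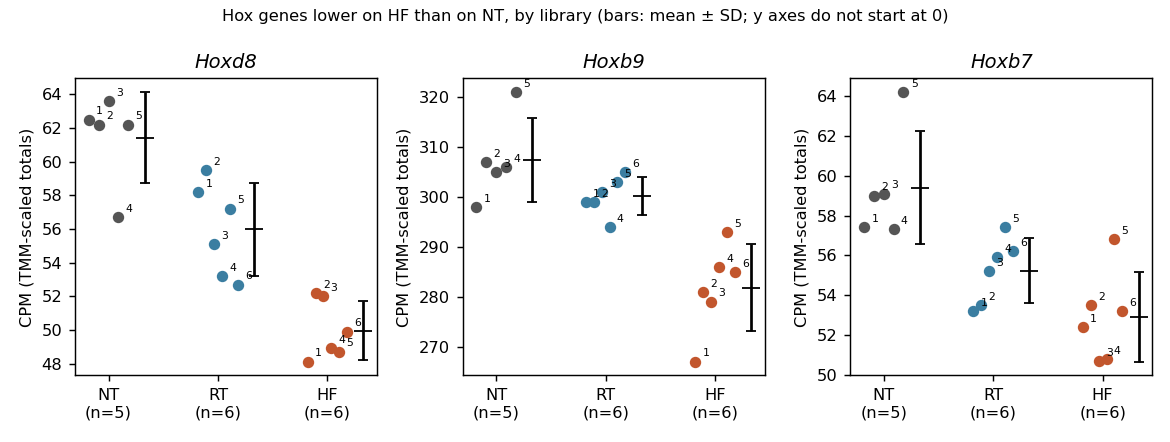
CPM of Hoxd8, Hoxb9 and Hoxb7 in each library (points, with the replicate number) on NT, RT and HF, with the mean ± SD beside them and axes that do not start at 0. The 6 HF libraries lie below the 5 NT libraries in each panel, for Hoxd8 at 48.1 to 52.2 against 56.7 to 63.6 CPM.

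The groups did not overlap for these 3 genes alone among the members, lower on HF in each case. Over all genes tested, 0.934% had HF wholly below NT. The other 26 tested members did not pass. Of the 29, 20 had a negative fold change, with a median of -0.07, where 51% of all genes tested had one and their median was 0.00 (log2). By cluster, all 8 tested Hoxb genes were negative with a median of -0.10, 4 of 5 Hoxd genes with a median of -0.13, 4 of 6 Hoxc genes with -0.08, and 4 of 10 Hoxa genes with a median of 0.02. No test of the difference between clusters was made.

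Among the Hoxd genes, the log2 fold change was -0.13 ± 0.06 for Hoxd9, the neighbour of Hoxd8 (SE, adjusted p = 0.358), and 0.36 ± 0.20 for Hoxd10 (SE, adjusted p = 0.408), with Hoxd10 at 1.9 ± 0.263 CPM on NT (SD, n = 5) and at 2.45 ± 0.188 on HF (SD, n = 6). The summed level of the Hoxd cluster ran from 39.7 to 44.5 CPM per kilobase in NT, from 37.8 to 41.8 in RT and from 35.6 to 37.5 in HF. Hoxd8 makes up a large part of that sum. The Hoxb sum was 262 ± 7.02 CPM per kilobase on NT (SD, n = 5) and 242 ± 7.73 on HF (SD, n = 6), and the Hoxa sum 146 ± 6.55 and 145 ± 9.44.

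**Figure D3:**
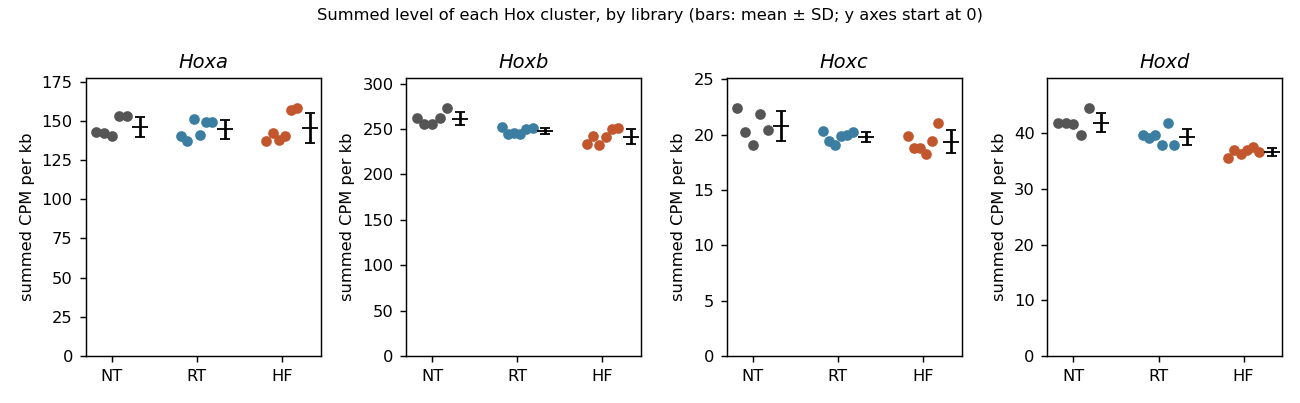
Summed level of each Hox cluster in CPM per kilobase of exon, by library (points) and surface, with the mean ± SD and axes that start at 0. The Hoxd sums of the HF libraries, 35.6 to 37.5, lie below those of NT, 39.7 to 44.5, and the Hoxa sums of the 3 surfaces overlap.

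Hoxa10, the highest Hoxa gene, stood at 132 ± 7.51 CPM on NT (SD, n = 5), 130 ± 6.11 on RT and 134 ± 6.98 on HF (SD, n = 6 each). Its log2 fold change of HF against NT was 0.02 ± 0.04 (SE, adjusted p = 0.87). Hoxc6, the highest Hoxc gene, stood at 16.7 ± 1.78, 15.2 ± 1.21 and 15.7 ± 1.26 CPM, with -0.09 ± 0.08 (SE, adjusted p = 0.656). The libraries of the 3 surfaces overlapped for both. Hoxa9, next to Hoxa10 in the cluster, was spread more widely, with 129 ± 18.7 CPM on NT (SD, n = 5) and 134 ± 22 on HF (SD, n = 6), and its log2 fold change was 0.05 ± 0.12 (SE, adjusted p = 0.897). Within the surfaces Hoxa9 and Hoxb8 differed between replicate numbers, 2 of 29 members against 1.22% of all genes tested (Hoxa9, Hoxb6 and Hoxb8 are named here after their values were seen).

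HF was next set against RT, which differs from it in having a relief without fractal shape. No Hox gene passed edgeR's test in either direction, 0 of 29, where 0.211% of all genes tested were called, and 0.0790% lower. At an unadjusted p under 0.05 there were 2, both lower on HF, Hoxd8 and Hoxb9, against 8.00% of all genes tested. These 2 were also the members whose HF libraries all lay below all RT libraries, 6.9% of members against 0.520% of all genes tested. The log2 fold change was -0.16 ± 0.04 for Hoxd8 (SE, adjusted p = 0.108) and -0.09 ± 0.03 for Hoxb9 (SE, adjusted p = 0.266). DESeq2 called Hoxd8 alone (adjusted p = 0.0498), as did edgeR fitted to HF and RT alone (0.0485), and limma voom called 0 Hox genes.

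RT against NT sets a relief without fractal shape beside a flat surface. Again 0 of 29 Hox genes passed by edgeR, where 3.97% of all genes tested were called, and 1.44% lower. At an unadjusted p under 0.05 there were 4, all lower on RT, Hoxd8, Hoxb6, Hoxb7 and Hoxb8, or 13.8% of members against 17.1% of all genes tested. For every member RT and NT overlapped, whereas RT lay wholly below NT for 1.22% of all genes tested. The log2 fold change of Hoxd8 was -0.14 ± 0.04 (SE, adjusted p = 0.0691). It passed with DESeq2 (adjusted p = 0.0415) and without NT 4 (0.0338), and limma voom called 0 Hox genes. Hoxb6 stood at -0.13 ± 0.05 (SE, adjusted p = 0.11) and Hoxb8 at -0.14 ± 0.05 (SE, adjusted p = 0.116). Apart from leaving out single libraries, Hoxb8 passed in 2 of 7 alternative settings and Hoxb6 in 1.

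**Figure D4:**
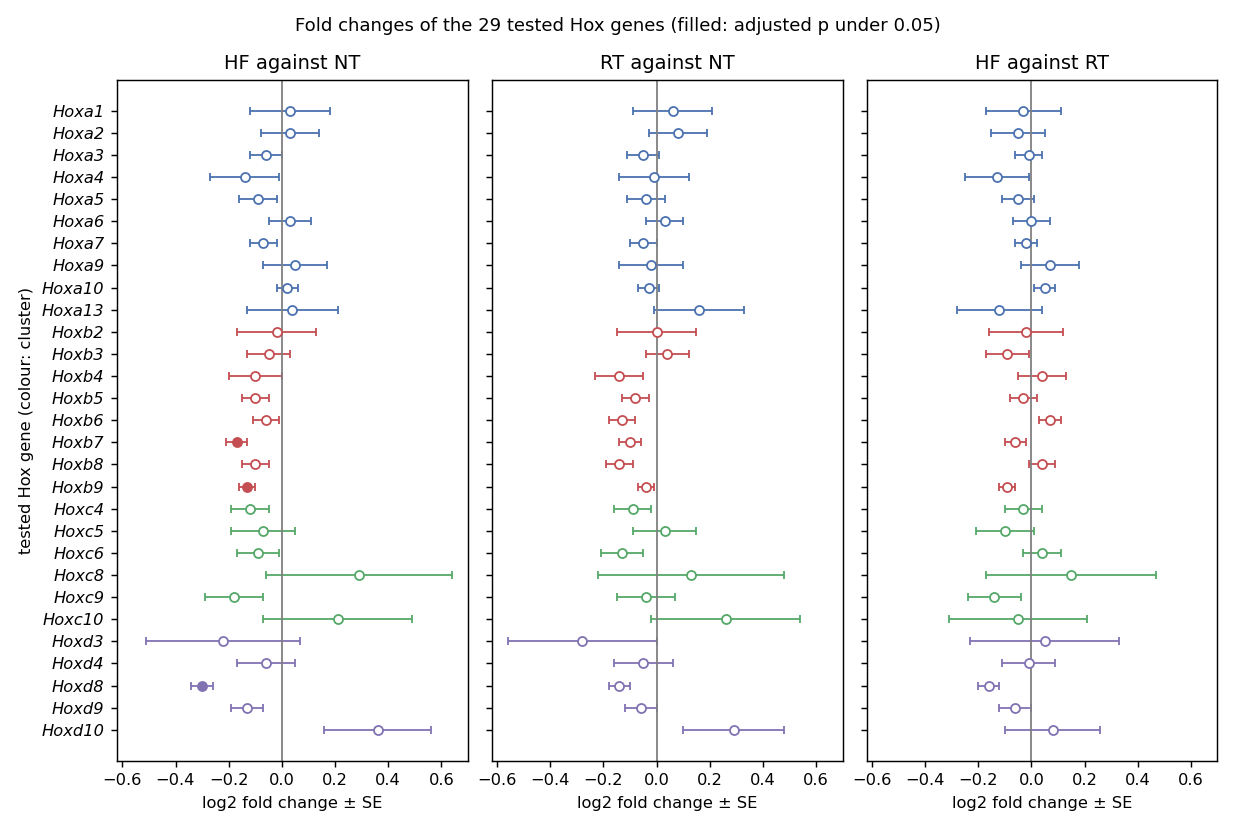
Log2 fold change ± SE of the 29 tested Hox genes in the 3 comparisons, coloured by cluster, with filled points where the adjusted p was under 0.05. The filled points are Hoxd8 (-0.30), Hoxb7 (-0.17) and Hoxb9 (-0.13) for HF against NT, and the comparisons that share a group of libraries are not independent.

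The 3 comparisons share their libraries in pairs, so their values are given side by side and not as support for each other. For Hoxd8 the difference of HF from NT, -0.30, divides into -0.14 from NT to RT and -0.16 from RT to HF. For Hoxb9 the parts were -0.04 and -0.09, and for Hoxb7 they were -0.10 and -0.06. With all 17 libraries and the 3 surfaces in 1 edgeR fit, neither part passed for any of the 3 genes.

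All 11 listed cofactors of the TALE class, which bind DNA with Hox proteins, were matched and 10 tested. Among the highest were Pbx2 with 86.4 ± 5.33 CPM and Meis2 with 83 ± 6.32 on NT (SD, n = 5). None passed in any of the 3 comparisons by edgeR, DESeq2 or limma voom (1 had an unadjusted p under 0.05 by edgeR, for HF against NT). Of the 28 Polycomb genes, all tested, 0 passed by edgeR or limma voom. DESeq2 called 1, Rbbp4, a histone-binding subunit, lower in HF against NT. By edgeR, an unadjusted p under 0.05 was reached by 5 in HF against NT, by 6 in RT against NT and by 3 in HF against RT. Over all genes tested the shares were 14.2%, 17.1% and 8.00%, and they are the reference for the other lists too. Of 15 listed trithorax group genes, histone demethylases and other chromatin genes, 1 rose in HF against NT and 0 fell. Over all genes tested, 2.33% were called. This was Dot1l, a histone methyltransferase, with 106 ± 6.57 CPM on NT (SD, n = 5) and 118 ± 2.36 on HF (SD, n = 6). Its log2 fold change was 0.15 ± 0.04 (SE, adjusted p = 0.0336), and 1 of NT 2, NT 3, NT 5, HF 1, HF 3, HF 4 and HF 5 left out ended that call (adjusted p between 0.0538 and 0.078), as did fitting HF and NT alone (0.0645). In the other comparisons none of the 15 passed by the 3 tools (by edgeR 1 in each had an unadjusted p under 0.05).

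Of 24 regulators upstream of Hox clusters, mostly of retinoic acid signalling, 16 were tested. Cdx1, Cdx2 and Cdx4, homeobox genes that switch on tail-side Hox genes in the embryo, had 0 counts. In RT against NT, 2 of the 16 rose and 0 fell, where 3.97% of all genes tested were called. At an unadjusted p under 0.05, 3 were higher and 2 lower, against 17.1% of all genes tested. Aldh1a2, which makes retinoic acid, stood at 104 ± 5.82 CPM on NT (SD, n = 5), 121 ± 4.22 on RT and 108 ± 5.27 on HF (SD, n = 6 each), and its rise on RT was 0.21 ± 0.04 in log2 units (SE, adjusted p = 0.001). Egr2, a regulator of Hox genes in the hindbrain, rose by 0.54 ± 0.15 (SE, adjusted p = 0.0307), a call lost without NT 2, NT 3, RT 1, RT 4, RT 5 or RT 6 (adjusted p between 0.0556 and 0.0899) and with libraries numbered 1 to 5 (0.0585). In HF against NT edgeR called 0 (4 at an unadjusted p under 0.05, against 14.2% of all genes tested). DESeq2 and limma voom called Aldh1a1, also a maker of retinoic acid, higher. In HF against RT edgeR and limma voom called 0. At an unadjusted p under 0.05 by edgeR there were 5, against 8.00% of all genes tested. The genes called by DESeq2 included Aldh1a2, lower on HF.

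Of 16 partners and targets of the group 11 paralogs in the embryonic kidney, 9 were tested. Six2, which marks nephron progenitors, had 0 counts, and Pax2 stood at 361 ± 16.3 CPM on NT (SD, n = 5). In HF against NT, 1 of the 9 rose and 0 fell by edgeR, where 2.33% of all genes tested were called. At an unadjusted p under 0.05, 2 were higher and 2 lower, against 14.2% of all genes tested. The called gene was Gdnf, the growth factor that calls out the ureteric bud. It rose by 0.62 ± 0.12 in log2 units (SE, adjusted p = 0.00344), from 4.53 ± 0.737 CPM (SD, n = 5) to 7 ± 0.838 (SD, n = 6). In HF against RT 0 passed by the 3 tools (3 at an unadjusted p under 0.05 by edgeR, against 8.00% of all genes tested). Of the 11 tested protein-coding neighbours of the clusters and the 7 tested noncoding RNAs in them, 0 passed by any of the 3 tools. By edgeR, an unadjusted p under 0.05 was reached by 2 neighbours for HF against NT, 2 for RT against NT and 0 for HF against RT. It was reached by 1 noncoding RNA, for RT against NT. Over all genes tested the shares were 14.2%, 17.1% and 8.00% in that order of comparisons.

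Markers of cell types moved between the same groups, and their part in the Hox values was not tested. Of all genes tested, 2.33% were called in HF against NT, 3.97% in RT against NT and 0.211% in HF against RT. In HF against NT, 1 podocyte marker of 10 tested rose (Actn4) and 2 fell (Wt1 and Pdpn), 1 of 5 parietal markers fell (Ncam1), 1 of 5 mesangial, pericyte and smooth muscle markers rose (Acta2), and the 5 tubular, 2 endothelial, 2 immune and 4 fibroblast markers tested had 0 calls by edgeR, DESeq2 and limma voom (1, 0, 1 and 2 at an unadjusted p under 0.05 by edgeR). In RT against NT, edgeR called Wt1, Pdpn and Cldn1 lower and Cdh6, Acta2, Tagln and Csf1r higher, and in HF against RT it called Ncam1 and Cdh6 lower. The summed parietal markers ran from 1240 to 1300 CPM in NT and from 1140 to 1210 in HF, and the summed mesangial, pericyte and smooth muscle markers from 684 to 780 in NT and from 813 to 890 in HF. The summed podocyte markers overlapped, with 2050 to 2180 CPM in NT and 2110 to 2200 in HF. Its largest members, Actn4 and Kirrel1, had means of 615 and 589 CPM on NT and 671 and 641 on HF. Wt1 and Pdpn had 115 and 175 on NT and 103 and 153 on HF, so the sum hides opposite movements. The summed tubular markers overlapped too, with 1420 to 1780 in NT and 1470 to 1810 in HF. The summed endothelial markers ran from 75.5 to 81.2 CPM in NT and from 72.4 to 82.5 in HF, the immune from 38.2 to 43.1 and from 41.1 to 55.5, and the fibroblast from 19.7 to 40 and from 32.4 to 58.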

How the data were processed

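Per the labels, poly-A RNA of 17 samples was made into non-directional libraries and read in pairs (2x150). The deposited table holds raw counts per Ensembl gene, and the submitters' processing notes name CASAVA, HISAT2 2.0.5, featureCounts 1.5.0-p3 and GRCm39, without a role for each. Annotation release, strand setting and filters are not given in the sources used here. GENCODE M21 (GRCm38) gave symbols for 52073 of 56748 genes, exon lengths and overlaps; genes without a symbol held 0.58% of counts.

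Genes passing filterByExpr (15196) were scaled by TMM and fitted across all genes with edgeR 4.0.16 (quasi-likelihood F test, robust, 1 mean per group, no covariate), two-sided, Benjamini-Hochberg over all genes, threshold 0.05. CPM use TMM-scaled totals, and SE is the log2 fold change over the square root of F. DESeq2 1.42.0, limma 3.58.1 (voom), other scalings, filters and sample sets, and leaving out each library were alternatives. In simulated data, 18% of genes changed 1.1-fold and 62% of those changed 1.2-fold were recovered for HF against NT, of 50 each among 15196.

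Full values are given for Hox genes past the threshold, Hoxd8, the highest of each cluster and the smallest p per comparison. From other lists, called genes or the 3 highest were taken. The members and lists were chosen with earlier results of these data known. Some genes of the lists are not reported here.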

Additional observations from a re-analysis of the deposited data

Results flagged for a closer look

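In 27 groups of 5 or 6 libraries checked, 3 had a library far from the others, where chance gives about 1 in 20. Hoxb7 was highest in NT 5, at 64.2 CPM, with the other NT libraries between 57.3 and 59.1. Without NT 5 the fall of Hoxb7 in HF against NT did not pass (adjusted p = 0.0592). Hoxd8 was lowest in NT 4, at 56.7 CPM, with the others between 62.2 and 63.6, and the Hoxd share of the summed Hox level was lowest in the same library, at 8.33% against 8.92% to 9.12%. Hoxd8 is part of that share. Leaving out NT 4 kept the fall of Hoxd8 in HF against NT and brought the one in RT against NT past the threshold (adjusted p = 0.0338).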

How the results depend on the processing

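Hoxd8 kept its call in HF against NT under all 24 alternatives, and the counts of Hox genes called were small enough to move by 1 or 2 genes. For HF against NT the count of 3 was 1 when HF and NT were fitted alone, and between 1 (without HF 1) and 3 when single libraries were left out. For HF against RT the count of 0 was 1 with DESeq2, with HF and RT fitted alone and with the replicate number as a block, and 0 without any single library. For RT against NT the count of 0 was 1 with DESeq2 (Hoxd8) and 1 with no filter beyond 1 count (Hoxb8). It was 2 with the block and between 0 and 1 without single libraries. The cause was not tested. With the replicate block, Hoxd8 in HF against RT (adjusted p = 0.0378) and Hoxb6 and Hoxb8 in RT against NT (0.0246 and 0.00618) passed. The numbers are not stated to pair the libraries, and same-numbered libraries of 2 groups correlated between -0.01 and 0.19 in their deviations from the group means, over 0.1 in 2 of 16 pairs. In each comparison 2 pairs matched each other best, number 1 and either 5 or 6. Whether the numbers pair the libraries was not settled by this check. The fold change of Hoxa10 in HF against NT, 0.02, turned to just under 0 and is written 0.00 with libraries numbered 1 to 5 and without HF 6, and lay between 0.00 and 0.05 without single libraries.

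The number of Hox genes at or above the level threshold, 26, lay between 22 and 27 with thresholds of 0.5 or 2, other lengths (leaving out shared bases was chosen after seeing the data), library totals or the level required in every library. Without division by length, the shares were 37.3% for Hoxa, 50.2% for Hoxb and 8.2% for Hoxd. Without single libraries they were 31.9% to 32.1% for Hoxa, 54.9% to 55.1% for Hoxb, 4.37% to 4.41% for Hoxc and 8.58% to 8.66% for Hoxd. Hox genes that were not tested had at most 114 counts in all libraries, and changes in them were not tested at this depth.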

Other observations

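Hoxa9, which did not pass in any comparison of surfaces, differed between replicate numbers within each surface. Its libraries stood at 108, 110 and 111 CPM in number 1 of NT, RT and HF, at 114, 116 and 122 in number 2, at 128, 130 and 121 in number 3, at 147, 125 and 127 in number 4, at 149, 140 and 161 in number 5 and at 145 and 163 in number 6 of RT and HF. In a fit with surface and number together, chosen after the values were seen, it differed between numbers by edgeR with an adjusted p of 2.69e-06. Hoxb8 passed as well (adjusted p = 0.0376), highest in number 5 of NT (112 CPM) and RT (98.5) and in number 6 of HF (102). These are 2 of 29 tested Hox genes, against 1.22% of all genes tested, and limma voom called 1, Hoxa9. Hoxa10, the gene next to Hoxa9, had an adjusted p of 0.211, and Hoxd8, Hoxb9 and Hoxb7 had 0.659, 0.741 and 0.626. The number still took up 70.2% of the variation of Hoxa10 within surfaces. For Hoxd8, Hoxb9 and Hoxb7 it took up 59.1%, 70% and 76.1%. Over the tested Hox genes this share ran from 8.02% for Hoxd3 to 86.7% for Hoxa9. The share that chance alone would give was not computed. What the numbers stand for is not stated.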
